A study of Mus musculus with 12 samples.

Results

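Adult neurogenesis in the hippocampus was followed here through 10 marker genes, Dcx, Igfbpl1, Sox11, Sox4, Neurod1, Sox2, Nes, Eomes, Mki67 and Top2a, chosen by name among the 23361 gene names of the expression table. All 10 were in the table, and where a name had several transcripts the one with the highest summed signal was used. The 12 libraries came from the hippocampus of wild type mice of C57/BL6 background, males of the C57Bl/6J substrain, with 1 hippocampus of 1 animal per library and 3 biological replicates in each of 4 groups. Aged EE mice were 14 to 17 months old and lived in environmental enrichment (EE): larger, fuller cages with running wheels, tunnels, ladders and toys whose arrangement was changed every week. Aged SH mice were of the same age and lived in standard housing (SH). Young EE and young SH mice were 5 to 6 months old and lived in the same 2 kinds of cage. All groups came from a cohort that was trained in a water maze, a spatial memory task, so none is free of learning. The ages above are those of the sample records, and the paper's range for its aged mice starts at a higher age. The paper gives its ages as those at the beginning of the experiments, so the mice may have been older when the tissue was taken. Housing lasted several weeks between a first and a second water maze, and the mice were killed some weeks after the last test. Dissected whole tissue was measured, in which newborn neurons are a small minority of the cells.

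New granule neurons are made throughout life in the subgranular zone of the dentate gyrus. Radial glia-like stem cells that carry Sox2 and nestin (Nes) give rise to dividing intermediate progenitors that carry Eomes (Tbr2), and these become neuroblasts and immature neurons that carry doublecortin (Dcx), Sox4 and Sox11 before they mature into granule cells. Neurogenesis in rodents is known to decline with age and to respond to running and enriched housing. None of these markers is exclusive to the lineage in whole tissue: Sox2 is also present in astrocytes, Nes in vascular cells and Neurod1 in mature granule cells.

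SAGE-Seq reads a short tag that starts at an NlaIII site (CATG) near the 3′ end of each polyadenylated transcript, so a gene is seen through its tags and not along its length. For each member the 27 bases that start at the last such site were read from the mouse genome (NCBIM37, the mm9 build of the deposited files). Those of Dcx, Igfbpl1, Eomes and Mki67 are shown because the results turn on them, with the NlaIII site in capitals.
Dcx, chrX:140290546-140290572, minus strand, in a UTR: CATGtgtgtgaggtgttgtgaactgtg
Igfbpl1, chr4:45822397-45822423, minus strand, in a UTR: CATGggtaaacaatgtgtgatgcattg
Eomes, chr9:118394478-118394504, plus strand, in a UTR: CATGacagaaaaaaacaaaacaaaaca
Mki67, chr7:142881544-142881570, minus strand, in a UTR: CATGaggaagatcaccagggatctcag
The Dcx and Igfbpl1 tags each occurred at 1 place in the genome and at no other place with 1 mismatch. The Eomes tag, in which 19 of the 27 bases are A, lay 773 bases from the transcript's end and had 6 further places with 1 mismatch, which the mapping allowed. The Mki67 tag occurred at 4 places without a mismatch. The tags of the other 6 members were unique by the same search. The Sox11 tag lay within the transcript of the expression table, 194 bases from its end, but in no gene of the GENCODE vM1 gene annotation. The Sox2 site also lies within Sox2ot, the Neurod1 site within Cerkl and the Sox4 site within Gm17419, Cerkl and Sox2ot on the same strand as the member and Gm17419 on the other, so reads from these overlapping genes may be counted with the members' own. Which tags of a transcript were counted is not given in the sources used here.

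Total reads over 1 transcript per gene name ranged from 4894604 to 11259805 per library. Levels are given as RPM, reads per 1000000 reads of the library, after scaling between libraries. A gene was tested when it passed a minimum of about 10 reads, which 13138 genes did, 7 of the 10 members among them. Mki67, Top2a and Eomes did not pass. Fold changes are log2 differences on the scale of log2(scaled reads + 2), where 2 scaled reads correspond to 0.228 RPM. They come from limma with Benjamini-Hochberg adjustment over all tested genes, and a gene was called at an adjusted p under 0.10. Libraries differed in their levels of regional markers in a way that crossed the groups. A dorsal minus ventral score, the mean log2 level of 6 dorsal markers less that of 15 ventral markers, lay between 1.06 and 1.68 in replicates 1 and 3 of aged EE and replicates 1 and 3 of young SH, and between -0.93 and 0.15 in the other 8 libraries. The same 4 libraries had the highest mean levels of a dentate granule cell list, which shares the gene Lct with the dorsal markers. They also had the highest mean log2 levels of oligodendrocyte and microglia lists. Whether region alone lies behind the score was not tested. Summed choroid plexus markers reached 1387 RPM in aged EE replicate 3, against 93.1 to 192 RPM in all other libraries.

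The members' tags spanned a wide range of abundance. Averaged over the 12 libraries, the tags stood at 88.8 RPM for Sox2, 72.4 RPM for Sox11, 72.1 RPM for Neurod1, 22.6 RPM for Dcx, 11.9 RPM for Sox4, 4.18 RPM for Nes and 1.05 RPM for Igfbpl1. Below them were Mki67 at 0.481 RPM and Top2a at 0.0971 RPM, and Eomes had no read. Neighbours at the top of this order were not separated: Sox11 was above Neurod1 in 6 of 12 libraries and Sox2 above Sox11 in 10 of 12. Neurod1 was above Dcx, Sox4 above Nes and Nes above Igfbpl1 in 12 of 12 libraries, and Dcx above Sox4 in 11 of 12. Igfbpl1 and Mki67 were not separated, with Igfbpl1 above Mki67 in 7 of 12 libraries, and Mki67 was above Top2a in 11 of 12. A tag count does not grow with transcript length, but the number and quality of tag sites differ between genes, so this is an order of tags. The plot of the members in each library shows these levels by group.

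**Figure D1:**
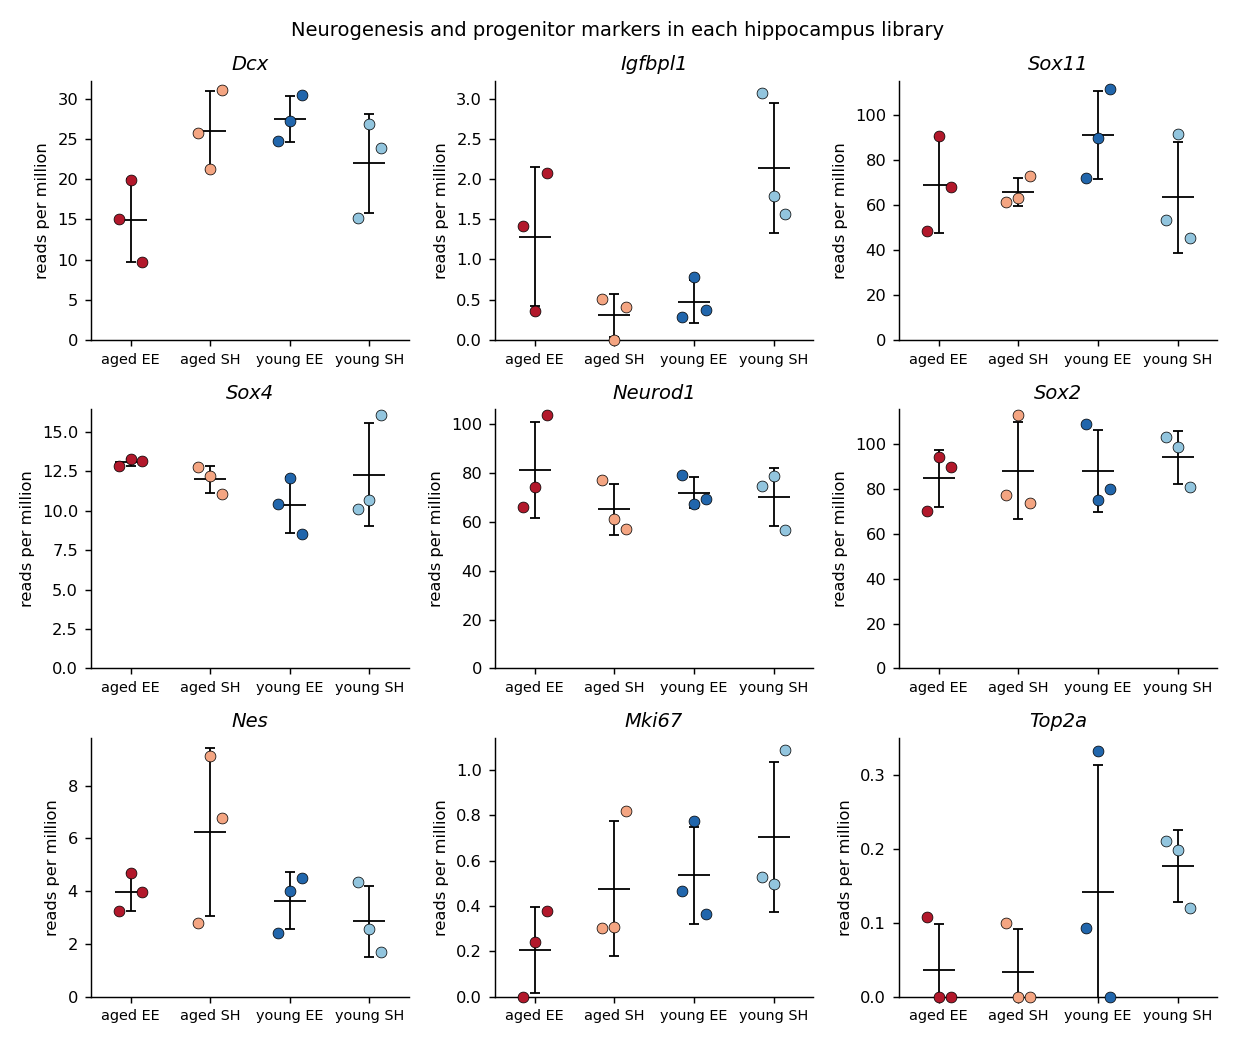
RPM (y axis from 0) of 9 members in each of the 12 libraries, with aged mice on the left, young mice on the right and EE left of SH within each age. Points are libraries (replicates 1, 2, 3 from left to right) and bars are the group mean ± SD (n = 3). The 3 aged EE libraries of Dcx (9.64 to 19.9 RPM) lie below all aged SH (21.3 to 31.1 RPM) and all young EE libraries (24.7 to 30.4 RPM), and Igfbpl1 is highest in young SH (1.57 to 3.06 RPM).

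Dcx, a microtubule-associated protein of migrating neuroblasts and immature neurons, was lowest in aged EE mice. It stood at 15.1, 19.9 and 9.64 RPM in aged EE libraries, against 25.7, 21.3 and 31.1 RPM in aged SH libraries. Every aged EE library was below every aged SH library. In young mice it was 24.7, 27.3 and 30.4 RPM with EE, against 15.1, 26.9 and 23.9 RPM with SH, and these groups overlapped. The group means were 14.9 ± 5.14 RPM in aged EE, 26.1 ± 4.92 RPM in aged SH, 27.5 ± 2.87 RPM in young EE and 22.0 ± 6.12 RPM in young SH (SD, n = 3 each).

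The difference of aged EE from aged SH in Dcx was -0.84 on the log2 scale (SE 0.28, 95% interval -1.46 to -0.22), or 1.79-fold lower. Its unadjusted p by limma was 0.0123 and its adjusted p 0.522, so it was not called. Against young EE, aged EE was lower by -0.93 (SE 0.28, unadjusted p = 0.00702, adjusted p = 0.626 by limma), again without overlap of the libraries. The effect of EE differed between ages by -1.20 (SE 0.40, unadjusted p = 0.0119, adjusted p = 0.295), EE minus SH being 0.36 (SE 0.28) in young mice. The age difference within SH was 0.27 (SE 0.28, 95% interval -0.35 to 0.89). All 12 fits that left out 1 library kept aged EE below aged SH, between -1.07 and -0.56. In bulk tissue, fewer cells with Dcx and less Dcx RNA per cell cannot be told apart.

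Igfbpl1, a secreted relative of the insulin-like growth factor binding proteins that is used as a neuroblast marker in the mouse, showed the opposite arrangement. It had 1.41, 0.362 and 2.08 RPM in aged EE libraries (13, 3 and 22 reads), against 0.502, 0 and 0.410 RPM in aged SH libraries (5, 0 and 2 reads). Young EE libraries had 0.279, 0.776 and 0.366 RPM (3, 7 and 3 reads), against 3.06, 1.79 and 1.57 RPM in young SH libraries (29, 18 and 13 reads). Young SH was thus the highest group and aged SH the lowest, and young SH overlapped with neither aged SH nor young EE. Counts this low carry a large counting error of their own.

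Igfbpl1 was the only member called in any comparison. It passed the filter partly through young SH, the group where it was highest (29, 18 and 13 reads), with aged EE replicates 1 and 3 (13 and 22 reads). No other library reached 10 reads, so the call is of a gene that its highest group helped to admit. Aged SH was lower than young SH by -2.27 on the log2 scale (SE 0.59, 95% interval -3.55 to -0.99, adjusted p = 0.0950 by limma), in a comparison that called 2.81% of all tested genes. The call was close to the threshold: adjusted p was 0.117 by edgeR's quasi-likelihood test and between 0.0636 and 0.292 when 1 library was left out, and it was lost without any one of the aged EE or aged SH libraries, young EE replicate 3, or young SH replicates 1 or 3. Without the 4 libraries of high dorsal minus ventral score, which leaves young SH replicate 2 alone in its group, the difference was -2.06. Young EE was below young SH by -1.77 (SE 0.59, unadjusted p = 0.0111, adjusted p = 0.426). Aged EE was above aged SH by 1.46 (SE 0.59, unadjusted p = 0.0286, adjusted p = 0.529), with overlapping libraries. The 2 housing effects differed by 3.23 (SE 0.83, unadjusted p = 0.00223, adjusted p = 0.255 by limma).

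**Figure D2:**
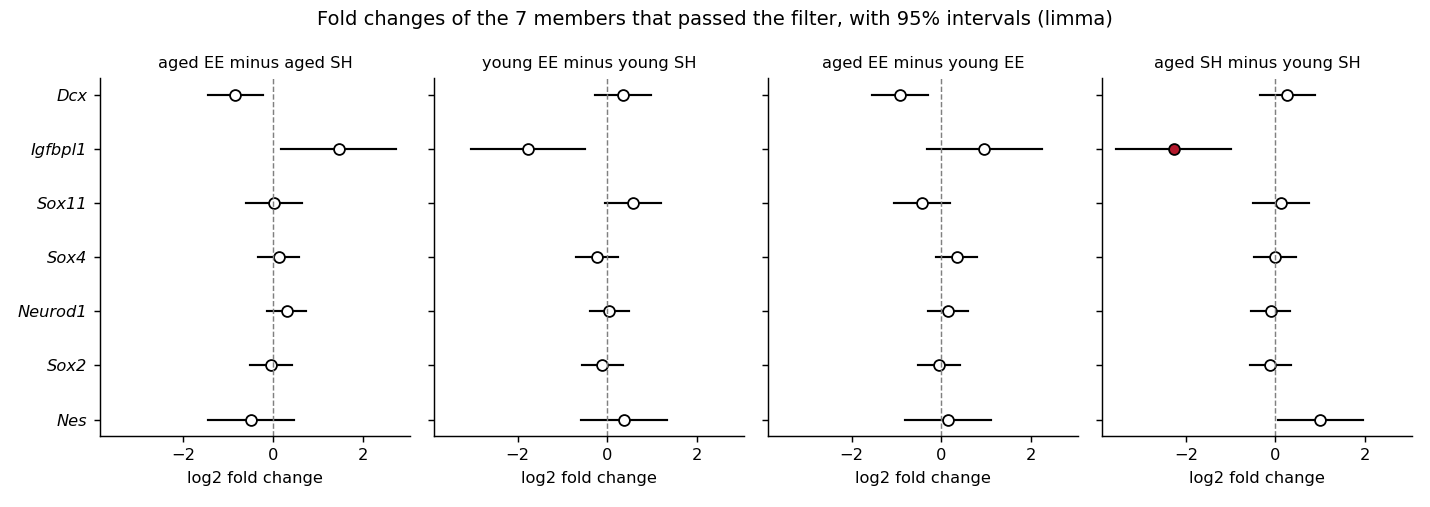
Log2 fold changes (x axis) of the 7 members that passed the filter in 4 comparisons, 1 panel each, the group named first over the group named second. Points are limma estimates, lines their 95% intervals, and the filled point is the only one called (Igfbpl1, aged SH minus young SH, -2.27). The intervals of Dcx exclude 0 where aged EE is compared with aged SH (-1.46 to -0.22) and with young EE (-1.55 to -0.31).

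Neither Dcx nor Igfbpl1 had a single direction over the regional scores of the libraries. Dcx ranged from 9.64 to 23.9 RPM in the 4 libraries of high score and from 19.9 to 31.1 RPM in the other 8. From the lowest to the highest score within these 4, Dcx was 9.64, 15.1, 23.9 and 15.1 RPM, so it did not fall with the score there. Igfbpl1 ranged from 1.41 to 3.06 RPM in the same 4 libraries and from 0 to 1.79 RPM in the other 8. The 4 libraries are 2 of the 3 aged EE and 2 of the 3 young SH libraries, so every pairwise comparison holds them on 1 side only. Since the libraries form these 2 clusters, the relation was examined within the 8 others, a split made after seeing the data. The 8 are all aged SH and young EE libraries with 1 each of aged EE and young SH, and the permutations ignored these groups. There Dcx was lower at higher scores (Pearson r = -0.79, exact permutation p = 0.0194, Spearman rho = -0.81, exact permutation p = 0.0218, each 0.0417 adjusted over 4 relations, n = 8), and r was -0.62 without the 2 libraries farthest from the median score. Igfbpl1 was also lower at higher scores within the 8, although it was high in the 4 libraries of high score, with r = -0.76 (exact permutation p = 0.0313, adjusted 0.0417) and rho = -0.71 (exact permutation p = 0.0576, adjusted 0.0576), and r was -0.81 without the same 2 libraries. With the score as a covariate, the Dcx difference of aged EE from aged SH was -0.52 (adjusted p = 0.950 by limma), and with the dentate granule cell list as a covariate it was -0.38. Without the 4 libraries, where aged EE replicate 2 stands alone and is assumed to vary like the other groups, it was -0.37 (adjusted p = 0.999). The Dcx difference of aged EE from young EE was -0.61 with the score as a covariate and -0.44 without the 4 libraries, and the difference between the 2 housing effects was -0.61 and -0.38. The part of regional makeup in these differences was not tested beyond these values.

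**Figure D3:**
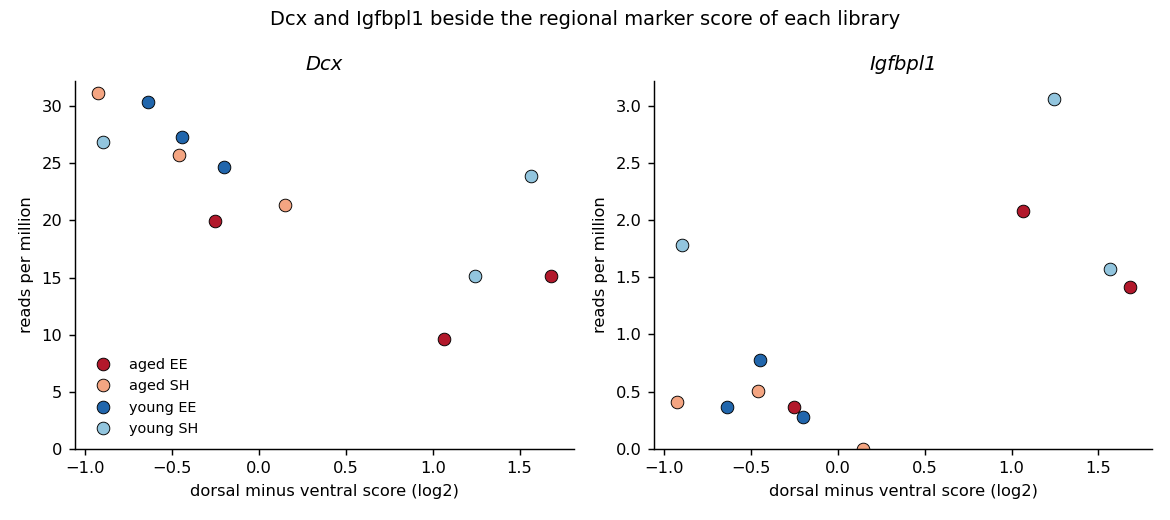
RPM (y axes from 0) of Dcx and of Igfbpl1 against the dorsal minus ventral marker score of each library (x axis, log2 units), coloured by group. The 4 libraries of high score, 2 of aged EE and 2 of young SH, stand apart at scores of 1.06 to 1.68. They hold Dcx at 9.64 to 23.9 RPM and Igfbpl1 at 1.41 to 3.06 RPM.

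None of the transcription factors of the neuronal lineage was called in any comparison. Sox11, which with Sox4 promotes the neuronal programme in newborn neurons, had 48.3, 90.9 and 68.1 RPM in aged EE libraries, against 61.3, 63.3 and 72.9 RPM in aged SH libraries. In young EE libraries it had 72.1, 90.0 and 112 RPM, against 53.3, 91.8 and 45.4 RPM in young SH libraries. The 4 groups overlapped, and replicates of 1 group spread about as widely as the groups. Group means were 69.1 ± 21.3 RPM in aged EE and 65.8 ± 6.22 RPM in aged SH, and 91.3 ± 19.8 RPM in young EE and 63.5 ± 24.9 RPM in young SH (SD, n = 3 each).

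Sox4, a close relative of Sox11, varied little between aged libraries. It had 12.8, 13.3 and 13.1 RPM in aged EE libraries, against 12.8, 12.2 and 11.1 RPM in aged SH libraries. Young EE libraries had 10.4, 12.1 and 8.55 RPM, against 10.1, 10.7 and 16.1 RPM in young SH libraries. The aged EE libraries all lay above those of aged SH and of young EE, but the fold changes were small, 0.12 (SE 0.21, adjusted p = 0.890 by limma) and 0.34 (SE 0.21, adjusted p = 0.679). Neurod1, which is needed for the survival and maturation of new granule cells, had 65.9, 74.1 and 104 RPM in aged EE libraries, against 77.0, 61.3 and 57.1 RPM in aged SH libraries. Its young EE libraries had 79.3, 67.3 and 69.5 RPM, against 74.8, 78.8 and 56.9 RPM in young SH libraries. Its highest value was in aged EE replicate 3, the library with the high choroid plexus markers and the lowest Dcx.

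Among the stem cell markers, Sox2, a factor that keeps neural stem cells undifferentiated, was level over the groups. It had 70.2, 94.3 and 90.0 RPM in aged EE libraries, against 77.4, 113 and 73.9 RPM in aged SH libraries, and 109, 75.2 and 80.0 RPM in young EE libraries, against 103, 98.7 and 80.8 RPM in young SH libraries. Its 4 pairwise log2 differences had 95% intervals within -0.58 and 0.42, so a doubling or a halving lay outside them. Nes, the intermediate filament of stem cells, had 3.26, 4.71 and 3.97 RPM in aged EE libraries, against 2.81, 9.11 and 6.76 RPM in aged SH libraries. In young EE libraries it had 2.42, 3.99 and 4.52 RPM, against 4.33, 2.58 and 1.69 RPM in young SH libraries. Aged SH was above young SH by 1.005 (SE 0.44, unadjusted p = 0.0409, adjusted p = 0.241 by limma), with overlapping libraries and 14 to 59 reads behind each value, so Nes was not called. The endothelial and mural list, whose cells can also carry Nes, overlapped between the same groups in its summed level (529 to 632 RPM in aged SH, 495 to 560 RPM in young SH).

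The proliferation markers were at the edge of detection. Mki67, the antigen Ki-67 of cycling cells, had 0, 2 and 4 reads in aged EE and 3, 2 and 4 reads in aged SH libraries, against 5, 7 and 3 reads in young EE and 5, 5 and 9 reads in young SH libraries. That is 15 reads in 6 aged libraries and 34 reads in 6 young libraries, or 0.341 ± 0.268 RPM and 0.620 ± 0.266 RPM (SD, n = 6 each). Its ranges overlapped between the ages. With ages permuted within housing, the difference of -0.278 RPM had a two-sided exact permutation p of 0.1, or 0.2 adjusted over 4 tests, and 0.005 is the smallest p the 400 arrangements allow.

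Top2a, the DNA topoisomerase of dividing cells, had 2 reads in aged libraries, 1 each in aged EE replicate 1 and aged SH replicate 1, against 9 reads in young libraries, of which 5 of 6 had at least 1. Its difference of -0.125 RPM had an exact permutation p of 0.045, or 0.180 adjusted over the 4 tests of these 2 genes, and the unadjusted p was above 0.05 in 8 of 12 tests that left out 1 library. Between EE and SH the exact permutation p was 0.170 for Mki67 and 0.880 for Top2a. Eomes had 0 reads in all 12 libraries. A count of 0 allows up to 3 reads, which is 0.279 RPM in the deepest and 0.614 RPM in the shallowest library, for counting error only. The part of its A-rich tag in the 0 reads was not tested, nor was that of the 4 genomic places of the Mki67 tag in the Mki67 reads.

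Read against all genes, the members did not stand out in most comparisons. By limma, 0 of 7 members were called for aged minus young averaged over housing, where 0% of tested genes were called, and 0 of 7 had an unadjusted p under 0.05 where 16.2% of genes did. For EE minus SH averaged over age, 0 of 7 were called (0% of genes) and 0 of 7 had such a p (6.27% of genes). For aged EE minus aged SH, 0 of 7 were called (0.00761% of genes), 2 of 7 had an unadjusted p under 0.05 (8.87% of genes) and 2 of 7 did not overlap (17.2% of genes). For young EE minus young SH, 0 of 7 were called (0% of genes), 1 of 7 had such a p (9.61%) and 1 of 7 did not overlap (12.9%). Aged SH minus young SH was the comparison with the most calls, 1 of 7 members and 2.81% of genes, with 2 of 7 members and 19.3% of genes under an unadjusted p of 0.05 and 1 of 7 members and 24.7% of genes without overlap. Its count of 369 called genes was not stable. Leaving out 1 library gave 0 (without aged SH replicate 1 or young SH replicate 3) to 1166 (without young EE replicate 1). Libraries outside the comparison also moved it through the shared fit, to between 42 and 63 without 1 of the aged EE libraries. For aged EE minus young EE, 0 of 7 were called (0%), 1 of 7 had such a p (7.87%) and 2 of 7 did not overlap (16.5%). For the difference of the 2 housing effects, 0 of 7 were called (0%) and 2 of 7 had an unadjusted p under 0.05 (12.1%). Dcx and Igfbpl1 made up all but 1 of the members with such a p, and Nes the other.

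Dcx was set against the other tested members over the 12 libraries. Of 6 correlations of Dcx with the other tested members, none passed 0.05 after adjustment. The closest were Neurod1 (r = -0.58, permutation p = 0.0515, adjusted 0.299; rho = -0.24, permutation p = 0.445) and Igfbpl1 (r = -0.50, permutation p = 0.0997, adjusted 0.299; rho = -0.33, permutation p = 0.296). Without aged EE replicates 1 and 3, the 2 libraries farthest from the median of Dcx, r was -0.24 for Neurod1 and -0.31 for Igfbpl1. Sox11 was positively related (r = 0.44, permutation p = 0.156; rho = 0.57, permutation p = 0.0589), with r = 0.49 without the same 2 libraries and r = 0.46 between deviations from the group means. For Sox4, Sox2 and Nes, r was -0.31, -0.18 and -0.03 (permutation p = 0.319, 0.581 and 0.934). Without the same 2 libraries r was -0.16 for Sox4 and -0.08 for Nes, but -0.62 for Sox2, which was -0.39 between deviations from the group means. Pairs of members without Dcx were not correlated here.

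The genes whose log2 levels were most like those of Dcx over the 12 libraries, of 13137 compared, were Col19a1 (r = 0.96), Kcnt1 (r = 0.96), Cxadr (r = 0.93), Utrn (r = 0.93) and Lrrk2 (r = 0.93). Col19a1 encodes a collagen, Kcnt1 a potassium channel, Cxadr a cell adhesion protein, Utrn a relative of dystrophin and Lrrk2 a kinase. For Igfbpl1 they were Dnajc9 (r = 0.91), 2700029M09Rik (r = 0.88) and Ccdc134 (r = 0.86). For Neurod1 they were Dhx38 (r = 0.96), Npm1 (r = 0.88) and Tmem108 (r = 0.86), and for Sox11 they were Stc1 (r = 0.89), Gulp1 (r = 0.88) and 4933437F05Rik (r = 0.84). Sox4 was closest to Ythdf1, Lmo2 and Chst7 (r = 0.87, 0.85 and 0.85), Sox2 to Pkib, Pikfyve and Cdc42 (r = 0.93, 0.89 and 0.88) and Nes to Zfp707, Lrrfip1 and Gpr56 (r = 0.89, 0.88 and 0.86). None of these nearest genes was itself a member. They are given as a description, since they are the highest of a very large number of correlations over few libraries. These libraries share group and regional marker levels.

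Other genes of the pathway were described by 4 lists. Of 29 tested genes of the neuroblast and immature neuron list, 0 were called in any of the 7 comparisons. Between aged EE and aged SH 21 of the 29 were lower and 8 higher, with a median of -0.31 against 0.03 for all genes. In young mice 21 were higher with EE and 8 lower, with a median of 0.25 against 0.00. The 4 libraries of high dorsal minus ventral score lie in aged EE and young SH, so score and group cannot be told apart in these shifts. With that score in the fit the median was -0.19 between aged EE and aged SH and 0.13 between young EE and young SH. Without the 4 libraries of high score, where aged EE and young SH have 1 library each, 14 of the 29 genes were lower and 15 higher between aged EE and aged SH (median 0.00311), and 13 were higher and 16 lower between young EE and young SH (median -0.0334). The medians of the age comparisons, 0.25 within SH and -0.36 within EE, became -0.12 and 0.02 without them. The signs of Dcx matched these medians in the 4 pairwise comparisons, and those of Igfbpl1 did not. The 4 genes of lowest p between aged EE and aged SH were Stmn1 (-0.64, SE 0.19), a microtubule-destabilising protein of growing neurons, Cdk5r1 (0.44, SE 0.16), Mfap4 (0.81, SE 0.35) and Bhlhe22 (0.48, SE 0.21), all with adjusted p of 0.522 to 0.549 by limma. Stmn1 had 180, 170 and 168 RPM in aged EE libraries, against 309, 227 and 281 RPM in aged SH libraries, without overlap. With age averaged over housing, the 4 of lowest p were Marcksl1 (0.57, SE 0.20), Stmn2 (-0.41, SE 0.17), Tubb2b (-0.50, SE 0.22) and St8sia4 (-0.32, SE 0.17).

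**Figure D4:**
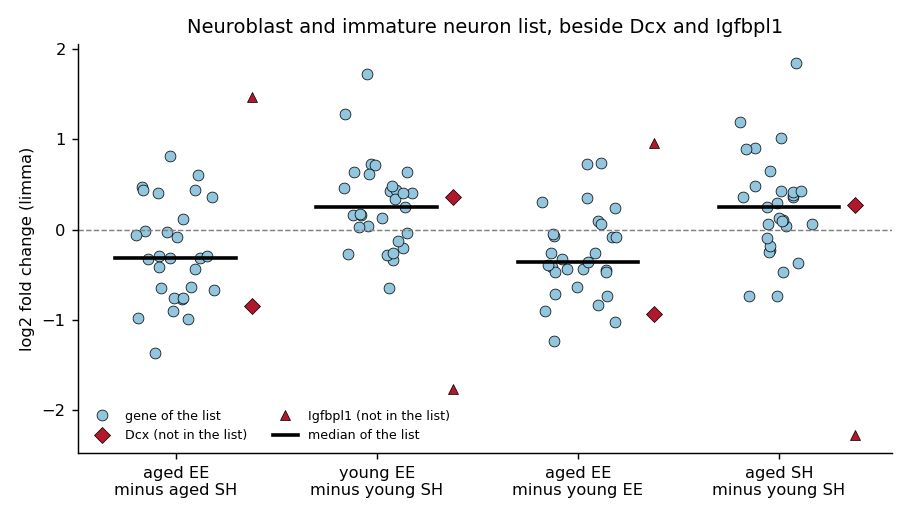
Log2 fold changes (y axis, limma) of the 29 tested genes of the neuroblast and immature neuron list (circles), with Dcx (diamonds) and Igfbpl1 (triangles) beside them, in 4 comparisons. Thick lines are list medians, -0.31 for aged EE minus aged SH and 0.25 for young EE minus young SH. None of the 29 genes was called, the medians were 0.00311 and -0.0334 without the 4 libraries of high dorsal minus ventral score, and Igfbpl1 lies on the other side of 0 from the median in all 4 comparisons.

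Of 25 tested progenitor and radial glia genes, 1 was called, between aged SH and young SH, where 2.81% of all genes were called, so the count says little about the list. Prom1, the surface protein CD133 of neural stem and ependymal cells, had 0.201, 0.309 and 0.615 RPM in aged SH libraries, against 2.64, 3.67 and 5.31 RPM in young SH libraries. The difference was -2.77 (SE 0.54, adjusted p = 0.0642 by limma). It came from low counts like those of Igfbpl1 and was lost in 12 of 28 alternative fits. Prom1 passed the filter through young SH, the group where it was highest, with young EE replicate 1 (2.89 RPM). All remaining libraries were at or below 0.760 RPM, so the call is of a gene that its highest group admitted. Between aged EE and aged SH the genes of lowest p in this list were Rest (0.80, SE 0.36), Notch2 (0.95, SE 0.43), Id4 (-0.48, SE 0.23) and Msi1 (0.71, SE 0.46). In the age comparison averaged over housing they were Prom1 (-1.61, SE 0.38), Id4 (-0.49, SE 0.16), Gfap (0.70, SE 0.29) and Notch2 (0.71, SE 0.31), none of them called. Of the 19 tested cell cycle genes of 35 listed and of the 26 tested niche signal genes, 0 were called in any comparison. In the cell cycle list the genes of lowest p between aged EE and aged SH were Ccne1 (-0.52, SE 0.21), Aurka (0.70, SE 0.34), Bub1b (0.68, SE 0.33) and Mcm7 (1.28, SE 0.70), and for age averaged over housing Ccna2 (-0.47, SE 0.25), Cenpe (-0.67, SE 0.36), Mcm6 (0.33, SE 0.21) and Rrm2 (-0.24, SE 0.22). Bdnf, a growth factor that supports new neurons, had the lowest p of the niche genes between aged EE and aged SH. It had 123, 69.5 and 127 RPM in aged EE libraries, against 41.2, 52.8 and 26.2 RPM in aged SH libraries (1.41, SE 0.36, unadjusted p = 0.00218, adjusted p = 0.522 by limma). It was followed by Fgfr1 (0.58, SE 0.22), a fibroblast growth factor receptor, the chemokine Cxcl12 (0.68, SE 0.27) and the Wnt inhibitor Frzb (-0.57, SE 0.26). For age they were the Wnt inhibitor Sfrp1 (0.38, SE 0.19), the BMP antagonist Chrd (0.39, SE 0.22), Dkk3 (0.21, SE 0.15) and the chemokine receptor Cxcr4 (0.46, SE 0.34).

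Markers of other cells in the dissected tissue were compared beside these results, as summed RPM and as the mean log2 level of each list, since a sum can rest on 1 abundant gene. By mean log2 level, blood markers were highest in young SH, where Igfbpl1 and Prom1 were also highest. Their mean log2 level was 8.97 to 9.64 in aged SH, against 10.46 to 12.41 in young SH, and their summed level 2024 to 2877 RPM in aged SH, against 3273 to 7632 RPM in young SH, without overlap on either scale. The sum is mostly of Hba-a1 and Hba-a2, a pair of near-identical globin genes with the same reads. Hbb-b1 and Hbb-b2 also had the same total reads, so the mean log2 level of the 5 tested markers rests on both globin pairs and Alas2. Microglia markers, set beside the Dcx difference, summed to 736 to 903 RPM in aged EE, against 606 to 701 RPM in aged SH, without overlap, while their mean log2 levels overlapped (7.79 to 8.25 in aged EE, 7.55 to 7.91 in aged SH). The mean log2 level of oligodendrocyte markers was 9.84 to 10.52 in the 4 libraries of high dorsal minus ventral score and 8.98 to 9.78 in the other 8. That of microglia markers was split in the same way, with 8.04 to 8.34 in the 4 libraries, of aged EE and young SH, and 7.55 to 7.98 in the other 8. The dentate granule cell list, with all 14 markers detected, summed to 623 to 903 RPM in aged EE, against 478 to 609 RPM in aged SH, and to 540 to 719 RPM in young EE, against 534 to 837 RPM in young SH.

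The subventricular and olfactory interneuron list, whose cells also carry Dcx, gave opposite orders on the 2 scales. It summed to 203 to 214 RPM in aged SH, against 321 to 410 RPM in young SH, a sum carried by Gad1, a gene of interneurons in general, at 221 RPM on average. Its mean log2 level was 5.89 to 6.00 in aged SH, against 5.58 to 5.82 in young SH. In aged EE the sum was 153 to 240 RPM, which overlapped that of aged SH. The CA pyramidal list summed to 703 to 780 RPM in young SH, below all other groups (1007 to 1432 RPM), but Mpped1 alone averaged 457 RPM, and the mean log2 levels overlapped (8.04 to 8.32 in aged SH, 7.99 to 8.22 in young SH). Vax1 of the interneuron list was at 0 in all 12 libraries, as was Tmem212 of the ependymal list, which summed to 7.60 to 50.5 RPM. The part of these cells in the differences of Dcx, Igfbpl1 and Prom1 was not tested.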

How the data were processed

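SAGE-Seq libraries of hippocampal RNA from 12 mice in 4 groups were analysed. Per the study's methods, tags were mapped to mm9 with 1 mismatch allowed and counted on 29973 transcripts. The authors deposited 12 tables that hold the same signal values for each library, together with their own comparison columns (fold changes and p-values), which were not used. The deposited signal proved to be whole reads divided by 1 factor per library: 100% of values below 1000 came out whole within 0.1 read. One transcript per gene name was kept, and identical isoform rows were so counted once. Samples were grouped by their titles.

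The members and gene lists were chosen with earlier results of these data known. All members were named in every comparison; from the lists, the 4 genes of lowest p for age and for aged EE minus aged SH, and any gene called; and the 5 genes most like Dcx and 3 most like each other member. Reads were scaled by TMM and filtered with filterByExpr (minimum count 10), and log2(scaled reads + 2) was fitted over all 12 libraries with limma 3.58.1 with a trended prior (R 4.3.3), adjusted over 13138 genes. Tests on the recovered reads with edgeR 4.0.16 (quasi-likelihood, 354 genes called for aged SH minus young SH, against 369 by limma; likelihood ratio) and DESeq2 1.42.0, other scalings, filters, pseudocounts, library sets, a replicate block and 2 covariates were tried as alternatives. Members under the filter were compared by exact permutation of RPM, and correlations by 100000 permutations (SciPy 1.17.1). Fits were also run on simulated counts, without the regional marker differences of these libraries and with changes in more abundant genes only. That run does not bear on the members with few reads. Libraries of 3 animals per group limit the precision. PCR reads without molecular identifiers are not independent molecules, so a limit from 0 reads covers counting error only.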

Additional observations from a re-analysis of the deposited data

How the results depend on the processing

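Igfbpl1 between aged SH and young SH was the only member call. It kept its direction in all 28 alternative fits and its call in 9 of them, with adjusted p from 0.0123 to 0.752. The number of members called for this comparison was 0, against 1, with edgeR's quasi-likelihood test, without a filter, with a mean of at least 20 reads (which Igfbpl1 does not reach), with a pseudocount of 0.5, at a threshold of 0.05, with only the groups compared, with the study's 2 libraries per group (aged EE 1, 3, aged SH 2, 3, young EE 1, 2, young SH 1, 2), with either covariate and without the 4 libraries of high dorsal minus ventral score, an alternative chosen after seeing the data that leaves 1 library each in aged EE and young SH. It was 0 to 1 when 1 library was left out. With the replicate block it was 0, and no other member call changed. Replicate numbers showed no clear pairing of the samples: deviations of same-numbered libraries had r over 0.1 in 5 of 18 pairs (-0.23 to 0.21). With 3 libraries per group this check cannot exclude a small shared effect. For the difference of the housing effects, the likelihood ratio test called 1 member, Igfbpl1, against 0.

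Signs of Dcx and Igfbpl1 turned only in uncalled differences; the cause was not tested. For Igfbpl1, EE minus SH averaged over age was -0.15 and became 0.0276 with a pseudocount of 0.5, 0.25 with the study's 2 libraries per group, and -0.42 to 0.14 with 1 library left out. Without the 4 libraries of high score, aged EE minus young EE was -0.17 for Igfbpl1, against 0.96. For Dcx, young EE minus young SH was -0.0188 with the dentate list as a covariate, against 0.36, and aged SH minus young SH was -0.15 with that covariate and -0.0616 without the 4 libraries, against 0.27. The other 32 member fold changes had the opposite sign in 70 of 928 alternative values and were called in 0. With 1 library left out, the EE minus SH difference of Top2a was -0.0648 to 0.00516 RPM and the correlation of Dcx with Nes -0.19 to 0.0301. The exact permutation p for age then lay between 0.015 and 0.1 for Top2a and for Mki67 between 0.01 (without aged SH replicate 3) and 0.215. By Spearman rho, 2 of the 5 genes most like Dcx were the same.

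Against 369 for aged SH minus young SH, 1145 genes were called by DESeq2, 972 by the likelihood ratio test, 151 without a filter, 123 with the replicate block, 46 without the 4 libraries, 1 at the 0.05 threshold, and 0 with the study's 2 libraries or either covariate. Against 0 for age averaged over housing, DESeq2 called 1016, the likelihood ratio test 906, and 5 were called without the 4 libraries, and against 0 for EE minus SH averaged over age each called 2, with 4 without the 4 libraries. Against 1 for aged EE minus aged SH, DESeq2 called 101, the likelihood ratio test 16, and 13 were called without the 4 libraries. Against 0 for young EE minus young SH, DESeq2 called 116, the likelihood ratio test 66, the quasi-likelihood test 11, and 10 were called with total reads only, 14 with a pseudocount of 8 and 40 without the 4 libraries. Against 0 for aged EE minus young EE the counts were 49 by DESeq2, 20 by the likelihood ratio test and 13 without the 4 libraries, and against 0 for the difference of the housing effects 301, 176 and 11. With 1 library left out, it was 0 to 1166 for aged SH minus young SH, moved over 1.5 times by each of the 12. For age it was 832 without young EE 2, for young EE minus young SH 294 without young EE 1, 86 without young SH 2, 9 without aged EE 1 and 6 without young SH 1, and for the difference of the housing effects 327 without young SH 2 and 43 without young EE 1. It was 0 to 5 for the other comparisons. Nes, Igfbpl1, Mki67 and Top2a had at most 59 reads in a library, and the part of depth in their results was not tested.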
